A study of Mus musculus with 288 samples.

Results

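The transcription factors Nkx2-1, Foxa1, Foxa2, Gata6, Cebpa, Cebpd, Etv5, Sox2, Sox9 and Elf3 were described across single cells sorted from mouse lung. They were chosen by name as factors of lung epithelial identity, without a limit on a measured value but with earlier results of these data known. They made up 10 of the 24781 genes of the count table. All 10 had counts. The mice were C57BL/6, 4 months old, with the genotype Scgb1a1-CreER;Rosa26-mTmG. Scgb1a1-CreER makes a drug-inducible Cre recombinase where the promoter of Scgb1a1, a secretoglobin of club cells, is active. Rosa26-mTmG is a reporter whose fluorescent colour changes once Cre has acted. Cells were taken from the fraction with Epcam, without CD45 or CD31 and low in CD24, and carried the Scgb1a1 lineage label, so all groups below share this genotype and gate. A cell with the label had active Scgb1a1-CreER when Cre was induced, and can have changed type since.

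The table holds 286 sorted wells and 2 negative controls, each counted on its own. No label names the animal of a cell, so the wells are 1 sample, no difference has a replicate check, and no p-value was made. Wells with totals up to 10 times that of the higher control, which had 234 counts, were removed. This kept 227 wells and removed 59. The kept wells were divided by the rule that defines the groups. The 63 Sftpc wells (27.75%) held at least 1% of their counts in Sftpc, surfactant protein C of alveolar type 2 (AT2) cells. The 74 Scgb3a1 wells (32.6%) held at least 1% in Scgb3a1, a secretoglobin of airway secretory cells. The remaining 90 (39.65%) are called the other wells. The well nearest below the Sftpc limit held 0.734% and the nearest above 2.07%, and these values were 0.876% and 1.01% for Scgb3a1. Of the kept wells, 0 passed both limits.

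The lung bud is first marked within the foregut by Nkx2-1, a homeodomain factor that later drives surfactant and secretoglobin genes together with the forkhead factors Foxa1 and Foxa2. During branching, Sox9 and Etv5 mark the distal tips that give rise to alveoli, and Sox2 marks the proximal airway. Gata6 and Cebpa act in the maturation of the distal epithelium, Cebpd is an acute-phase and glucocorticoid-responsive relative of Cebpa, and Elf3 is an ETS factor of differentiated epithelia.

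Marker lists were compared with the rule that made the groups. All 14 AT2 markers were detected in the Sftpc wells, where they took a median of 24.28% of a well's counts, against 0.646% in the Scgb3a1 wells and 1.21% in the other wells. That list includes Sftpc, which the rule used. The 12 club cell markers, Scgb1a1 among them, took 2.07%, 30.99% and 40.09%. The 8 goblet and Scgb3a1 markers took a median of 8.01% in the Scgb3a1 wells and 0% in each of the others. That list includes Scgb3a1, which the rule used. Without the gene of the rule, the AT2 list took 7.50%, 0.636% and 1.2% in the Sftpc, Scgb3a1 and other wells, and the goblet list 0%, 1.94% and 0%. The ciliated list was counted without Tubb4b, which had counts in most wells. Over its remaining genes, 9 other wells had at least 3 counts and held 221 of the 236 counts and all 42 Foxj1 counts of the other wells. So did 1 Scgb3a1 well, with 44 of 73 counts and 4 of Foxj1, and 2 Sftpc wells, with 6 of 26 counts and 0 of Foxj1. Ptprc (CD45) and Pecam1 (CD31), the genes of the markers excluded by the gate, had 0 counts in each group. Summed counts over the immune list were 1, 1 and 5 in the Sftpc, Scgb3a1 and other wells, over the endothelial list 4, 2 and 16, and over the mesenchymal list 2, 3 and 1.

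Depth differed between the groups. Totals per well ran from 2384 to 8806 counts (median 3529) in the Sftpc wells, from 3376 to 15088 (median 6940.5) in the Scgb3a1 wells and from 2419 to 9718 (median 5406) in the other wells. Levels are therefore given as pooled CPM, a gene's counts for each 1000000 counts when all wells of a group are added up, with an exact Poisson 95% interval. All intervals cover counting error only. The groups also lay unevenly in the table. Its first, middle and last 96 columns, which are positions in the table and not a labelled batch, held 6, 17 and 40 Sftpc wells, 38, 31 and 5 Scgb3a1 wells, and 38, 33 and 19 other wells. What these positions stand for cannot be told apart from the groups except by the values within each set, given beside the results they touch.

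The 10 factors together had 1219 counts in the kept wells and 0 in the negative controls. The 2 controls held 275 counts of all genes together, too few for that 0 to show that the factors were absent. The median number of the factors detected in a well was 3 of 10 in the Sftpc wells (range 1 to 7), 4 in the Scgb3a1 wells (range 1 to 8) and 2 in the other wells (range 0 to 8). Their summed level was 1836 CPM in the Sftpc wells, 912.0 CPM in the Scgb3a1 wells and 611.6 CPM in the other wells. Most single values in a well were 0, 1 or 2 counts, so a count of 0 in a well does not show that the cell lacked the factor.

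**Figure D1:**
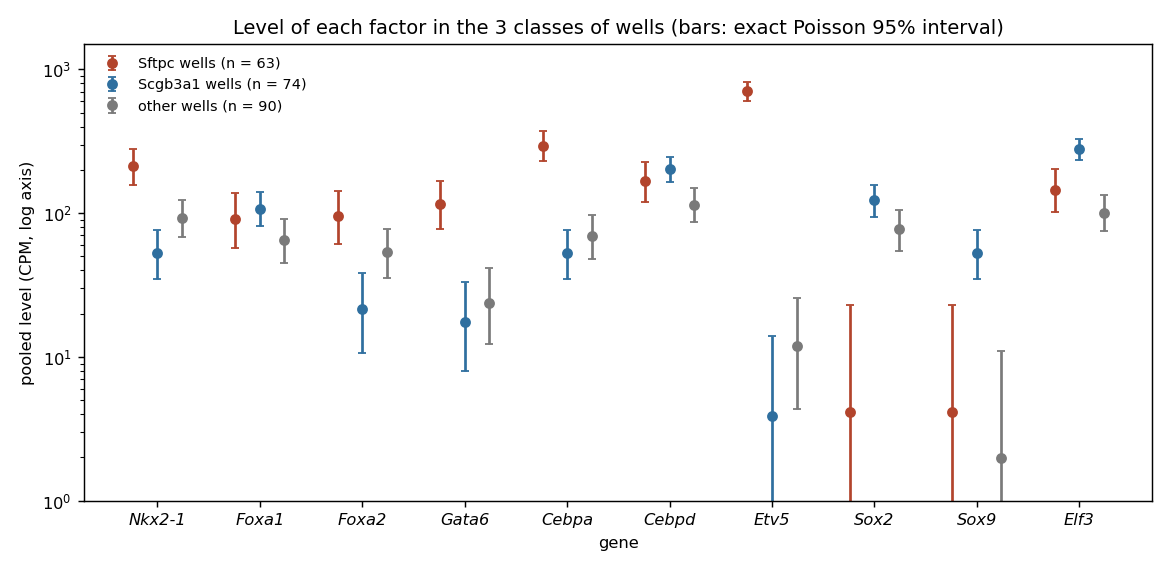
Pooled level (CPM, log axis) of each factor in the 63 Sftpc wells, 74 Scgb3a1 wells and 90 other wells. Points are pooled levels and bars are exact Poisson 95% intervals, cut at the lower edge where they reach below it. Etv5 stands at 706.3 CPM in the Sftpc wells and at 11.88 CPM or less in the other groups, and Sox2 shows the reverse order.

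Etv5, an ETS factor that FGF signalling induces in distal lung epithelium, differed most. In the Sftpc wells it ran from 0 to 8 counts per well with a median of 2, and 52 of 63 wells (82.54%, exact 95% interval 70.9 to 90.95) had a count. In the Scgb3a1 wells it had 2 counts in all, in 2 of 74 wells (2.7%), and in the other wells 6 counts in 6 of 90 wells (6.67%), with a highest value of 1. The groups thus overlapped only at 0 and 1 count per well, and 43 Sftpc wells had 2 or more. The pooled level was 706.3 CPM (604.2 to 820.9) in the Sftpc wells, 3.90 CPM (0.472 to 14.08) in the Scgb3a1 wells and 11.88 CPM (4.36 to 25.85) in the other wells. This made Etv5 59.48-fold higher (26.77 to 164.4) in the Sftpc wells than in the other wells and 181.2-fold higher (49.41 to 1509) than in the Scgb3a1 wells. At a common depth of 3000 counts, which leaves out 14 shallower Sftpc wells and 4 other wells, the expected shares of wells with a count were 82.37%, 1.42% and 3.68%.

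Within the Sftpc wells, the first set of columns stood apart for Etv5. Its 6 Sftpc wells had 6 Etv5 counts in 3 wells, a level of 178.8 CPM (65.61 to 389.2), against 800.0 CPM (601.0 to 1044) in the middle set and 787.8 CPM (647.5 to 949.6) in the last. In the same 6 wells Scgb1a1 took 15.97% of the counts and Sftpc 8.64%, against 3.45% and 16.17% in the 17 wells of the middle set and 2.24% and 16.35% in the 40 wells of the last. Their part in the lower Etv5 level was not tested. Each of the 3 sets still gave Etv5 more than 2-fold higher in the Sftpc wells than in the other wells. In the first set that ratio rests on 6 and 2 counts, under the minimum of 20 for a call.

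Nkx2-1, the lung lineage homeodomain factor, was detected in all groups. It ran from 0 to 4 counts per Sftpc well (median 1, 37 of 63 wells with a count), from 0 to 2 per Scgb3a1 well (median 0, 21 of 74 wells) and from 0 to 3 per other well (median 0, 33 of 90 wells). The ranges overlapped almost fully, and the groups differed in how many wells had a count. Pooled levels were 211.9 CPM (157.8 to 278.6), 52.61 CPM (34.67 to 76.55) and 93.02 CPM (68.35 to 123.7). Nkx2-1 was 4.03-fold higher (2.48 to 6.68) in the Sftpc than in the Scgb3a1 wells and 2.28-fold higher (1.5 to 3.46) than in the other wells. The ratio to the other wells went below 2-fold in 6 of its alternatives, from 1.19 on the log2 scale to 0.87 with TMM scaling, 0.96 with each of the other scalings, 0.89 in wells above 4000 counts, 0.93 without the last 96 columns and 0.33 in the first set (119.2 against 95.1 CPM). The Scgb3a1 wells were 0.566 times the other wells (0.339 to 0.927), which is short of 2-fold. In the middle set they were past 2-fold lower (39.92 against 81.69 CPM). In the last set they stood above the other wells (194.7 against 117.5 CPM), but from 5 and 10 counts and with overlapping intervals. In the last set of columns the 5 Scgb3a1 wells had 194.7 CPM (63.21 to 454.3), beside 243.5 CPM in the 40 Sftpc wells, so the order of those groups was not resolved there.

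Cebpa, a C/EBP factor of AT2 cell maturation and lipid synthesis, was higher in the Sftpc than in the other wells in every set of columns. It ran from 0 to 7 counts per Sftpc well with a median of 1, and 9 wells had 3 or more, whereas its highest value was 2 in each of the remaining groups, with medians of 0. Levels were 295.0 CPM (230.4 to 372.1) in the Sftpc wells, 52.61 CPM (34.67 to 76.55) in the Scgb3a1 wells and 69.27 CPM (48.25 to 96.34) in the other wells. The ratio was 4.26 (2.80 to 6.58) against the other wells and 5.61 (3.55 to 9.09) against the Scgb3a1 wells. Within the Sftpc wells of the first, middle and last sets, Cebpa stood at 238.4, 296.3 and 308.0 CPM, and in the other wells at 65.07, 72.61 and 70.5 CPM. The Scgb3a1 wells had 42.19, 55.89 and 116.8 CPM. In the last set that level came from 3 counts (24.09 to 341.4 CPM), overlapping the Sftpc wells (222.9 to 414.8 CPM). The order of the Sftpc and Scgb3a1 wells was therefore not resolved there. The Scgb3a1 and other wells differed by less than their counting error (ratio 0.76, 0.442 to 1.29).

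Sox2, the SOX factor of proximal airway, had the opposite distribution to Etv5. It had 1 count in the 63 Sftpc wells. It ran from 0 to 4 counts per Scgb3a1 well with a median of 1, in 42 of 74 wells (56.76%), and from 0 to 2 per other well with a median of 0, in 30 of 90 wells (33.33%). Levels were 4.16 CPM (0.105 to 23.15), 122.8 CPM (94.33 to 157.1) and 77.19 CPM (54.89 to 105.5). The other wells were 18.58-fold above the Sftpc wells (3.14 to 752.3) and the Scgb3a1 wells 29.55-fold above them (5.11 to 1185), ratios that rest on that 1 count. Sftpc wells of the first and middle sets had 0 Sox2 counts, which allows up to 89.4 and 44.45 CPM. The other wells of those sets had 100.1 and 54.46 CPM, so a 2-fold difference from them was not resolved there. Between the Scgb3a1 and other wells the ratio was 1.59 (1.05 to 2.44), short of 2-fold, and at a common depth of 3000 counts the shares of wells with a count came to 31.3% and 21.91%. In the middle set the Scgb3a1 wells were past 2-fold above the other wells (111.8 against 54.46 CPM), from 28 and 12 counts with overlapping intervals. In the last set these groups stood at 77.88 and 82.25 CPM, from 2 and 7 counts.

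Promoter sequences are shown for these 4 factors, since Etv5, Nkx2-1 and Cebpa were all higher in the Sftpc wells and Sox2 lower. Each line gives the stretch from RefSeq (GRCm38.p6) upstream of the first annotated transcript base, on the gene's strand. Capitals mark a match to 1 of 6 short motifs searched on both strands: CTCAAG for NKX2-1, TGTTTAC for FOXA, TTGCNNAA for C/EBP, CCGGAAGT for ETS, AACAATG for SOX and AGATAAG for GATA. The motifs do not overlap in these stretches.
Etv5, chr16:22439720-22439820, minus strand: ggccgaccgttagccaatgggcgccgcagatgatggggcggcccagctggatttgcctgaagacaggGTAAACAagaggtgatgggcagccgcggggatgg
Nkx2-1, chr12:56536909-56537158, minus strand: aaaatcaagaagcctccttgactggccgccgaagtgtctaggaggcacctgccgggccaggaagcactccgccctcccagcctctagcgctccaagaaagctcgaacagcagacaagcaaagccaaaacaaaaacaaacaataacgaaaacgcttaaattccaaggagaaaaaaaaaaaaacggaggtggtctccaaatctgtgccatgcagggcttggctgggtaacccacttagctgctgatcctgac
Cebpa, chr7:35119043-35119292, plus strand: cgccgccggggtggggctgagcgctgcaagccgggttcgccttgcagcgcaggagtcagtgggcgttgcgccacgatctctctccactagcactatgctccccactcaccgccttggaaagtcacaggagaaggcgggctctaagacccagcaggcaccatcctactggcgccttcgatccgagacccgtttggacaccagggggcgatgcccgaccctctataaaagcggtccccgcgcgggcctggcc
Sox2, chr3:34649745-34649994, plus strand: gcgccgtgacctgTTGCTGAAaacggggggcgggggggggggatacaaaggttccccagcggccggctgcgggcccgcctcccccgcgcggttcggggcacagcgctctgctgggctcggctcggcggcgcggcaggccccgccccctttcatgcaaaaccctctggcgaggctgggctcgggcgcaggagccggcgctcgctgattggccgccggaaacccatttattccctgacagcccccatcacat

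In these 4 stretches there were 2 matches. The Etv5 stretch holds the FOXA motif, read on the opposite strand, at 183 to 177 bases before the RefSeq start. That stretch is the first 101 bases of a 250-base window, cut where the GENCODE gene begins. The RefSeq start therefore lies downstream of the end of the printed stretch. The second of 2 Etv5 windows holds no match. The Sox2 stretch holds a C/EBP motif at 237 to 230 bases before its RefSeq start. The shares that follow are for the 32536 promoter windows of the same table, each of 250 bases. Of these, 3.17% hold the FOXA motif and 9.57% the C/EBP motif, 13.29% the NKX2-1 motif, 2.90% the ETS motif, 3.22% the SOX motif and 2.71% the GATA motif. A match describes letters only and is not a shown binding site. The table had entries for 7 of the 10 factors, and Gata6, Cebpd and Sox9 are named only. Among the others, a FOXA match also lies in the Foxa1 window (141 to 135 bases before the start) and an NKX2-1 match in the third of 3 Foxa2 windows.

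The genes lie on separate chromosomes for the most part. In GENCODE M21 on GRCm38, the mouse assembly also called mm10, Etv5 spans 22381309 to 22439719 on chromosome 16, Cebpa 35119293 to 35121928 on chromosome 7 and Sox2 34650405 to 34652461 on chromosome 3. Nkx2-1 spans 56531958 to 56536908 and Foxa1 57540628 to 57546916 on chromosome 12, with 1003719 bases between them. Foxa2 spans 148042877 to 148046969 on chromosome 2, Cebpd 15887286 to 15891031 on chromosome 16, Sox9 112782224 to 112787760 on chromosome 11, and Elf3 135253575 to 135258568 on chromosome 1. All are protein-coding. Some overlap other genes, and the counting is not stated to use strand. Cebpd overlaps Spidr on the opposite strand, which had 10 counts in the kept wells, and Sox2 lies within Sox2ot, which had 0.

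**Figure D2:**
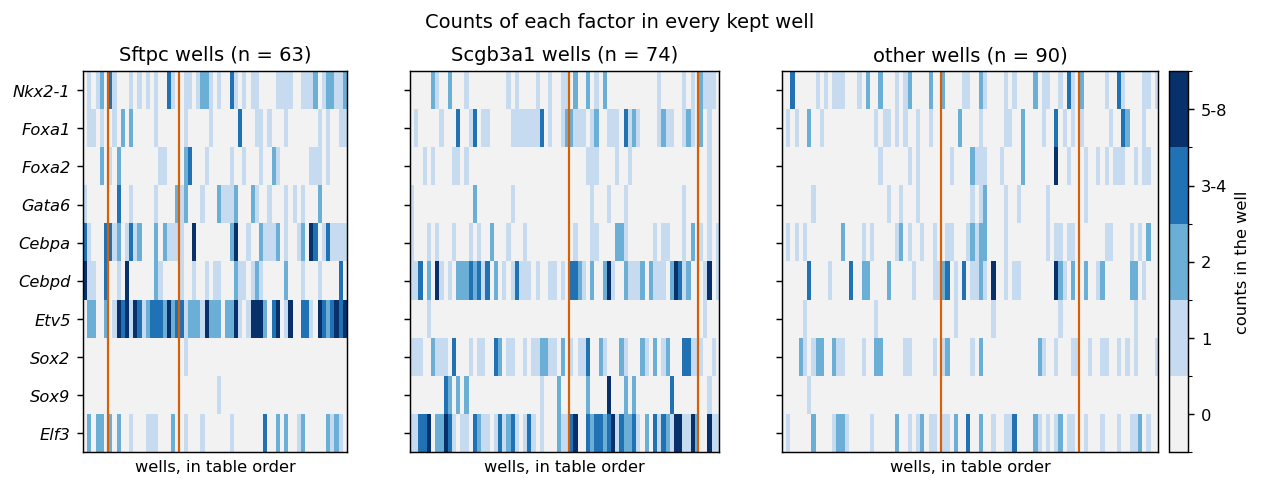
Counts of each factor in every kept well, 1 column per well in table order, for the Sftpc, Scgb3a1 and other wells, with colour for 0, 1, 2, 3 to 4 and 5 to 8 counts. Orange lines part the first, middle and last sets of 96 table columns. The Etv5 row is filled in 52 of the 63 Sftpc wells, and Sox2 in 1 of them.

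The forkhead pioneer factors Foxa1 and Foxa2, which open chromatin at endodermal genes, were distributed differently from each other. Foxa1 ran from 0 to 3 counts per well in each group, with a median of 0 in the Sftpc and other wells and of 1 in the Scgb3a1 wells. Its levels were 91.41 CPM (57.29 to 138.4) in the Sftpc wells, 107.2 CPM (80.74 to 139.5) in the Scgb3a1 wells and 65.31 CPM (44.96 to 91.72) in the other wells. All 3 intervals overlap, and none of the ratios reached 2-fold, with 1.40 for Sftpc over other wells (0.777 to 2.47), 1.64 for Scgb3a1 over other wells (1.05 to 2.61) and 0.853 for Sftpc over Scgb3a1 wells (0.495 to 1.42). A count of Foxa1 was seen in 54.05% of Scgb3a1 wells and 28.57% of Sftpc wells, but at a common depth of 3000 counts these shares were 28.66% and 24.95%.

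Foxa2 ran from 0 to 3 counts per Sftpc well, 0 to 1 per Scgb3a1 well and 0 to 5 per other well, with medians of 0. Its levels were 95.56 CPM (60.58 to 143.4), 21.43 CPM (10.7 to 38.35) and 53.44 CPM (35.22 to 77.75). The Sftpc wells were 4.46-fold above the Scgb3a1 wells (2.09 to 10.13). The other wells were 2.49-fold above the Scgb3a1 wells (1.2 to 5.57), and the Sftpc wells 1.79-fold above the other wells (0.98 to 3.24), which passed 2-fold at a 2% class limit and without the well of most counts. In the other wells Foxa2 moved with table position, at 15.02 CPM in the first set, 68.07 CPM in the middle and 105.8 CPM in the last. The Scgb3a1 wells of these sets had 21.1, 19.96 and 38.94 CPM. In the first set the Scgb3a1 and other wells had 5 and 3 counts (6.85 to 49.23 and 3.10 to 43.88 CPM), too few to resolve their order.

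Gata6, a zinc finger factor of endoderm and distal lung maturation, spans 11052064 to 11085635 on chromosome 18. It ran from 0 to 3 counts per Sftpc well and from 0 to 2 per well in the remaining groups, with medians of 0, and had a count in 20 of 63, 8 of 74 and 11 of 90 wells. Levels were 116.3 CPM (77.31 to 168.1), 17.54 CPM (8.02 to 33.29) and 23.75 CPM (12.27 to 41.49). It was 4.90-fold higher in the Sftpc than in the other wells (2.41 to 10.58) and 6.63-fold higher than in the Scgb3a1 wells (3.04 to 15.98). The Scgb3a1 and other wells differed by less than their counting error (ratio 0.738, 0.275 to 1.91). In the first set of columns the Sftpc wells had 1 Gata6 count, too few to resolve the ratio.

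Cebpd, the acute-phase C/EBP factor, did not reach 2-fold in any pair of groups over all wells. Its counts ran from 0 to 5 in the Sftpc and other wells (medians 0) and from 0 to 7 in the Scgb3a1 wells (median 1). Levels were 166.2 CPM (118.7 to 226.3), 202.7 CPM (165.6 to 245.6) and 114.8 CPM (87.17 to 148.4), for the Sftpc, Scgb3a1 and other wells. The ratio of Scgb3a1 to other wells was 1.77 (1.27 to 2.48), and that of Sftpc to Scgb3a1 wells 0.82 (0.555 to 1.19). Cebpd was uneven between the wells of each group. Its variance over wells was 2.05, 1.71 and 1.86 times the mean in the Sftpc, Scgb3a1 and other wells, against 1 for counts that vary only by sampling at equal depth. Cebpa (1.875) and Etv5 (1.81) were also uneven over the Sftpc wells. In level, Cebpa was 4.26-fold higher in the Sftpc than in the other wells, where Cebpd was 1.45-fold higher (0.943 to 2.20). The sets of columns differed for Cebpd. In the first set the Sftpc, Scgb3a1 and other wells had 327.8, 211.0 and 80.08 CPM, so the Sftpc and Scgb3a1 wells were past 2-fold above the other wells (log2 2.03 and 1.40). The Sftpc level there came from 11 counts in 6 wells (163.6 to 586.5 CPM), and single wells held 5 and 4 of these counts. The levels were 133.3, 187.6 and 145.2 CPM in the middle set and 143.2, 272.6 and 117.5 CPM in the last. There the Scgb3a1 and other wells had 7 and 10 counts, under the minimum of 20 for a call. Their intervals overlapped (109.6 to 561.6 and 56.35 to 216.1 CPM), so their order was not resolved in the last set. By the mean of well CPM the ratio of Scgb3a1 to other wells passed 2-fold over all wells (log2 1.09).

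Elf3 had its highest level in the Scgb3a1 wells. It ran from 0 to 8 counts per Scgb3a1 well with a median of 1, and 24 of these wells had 3 or more, against 1 of the Sftpc wells (range 0 to 3, median 0) and 2 of the other wells (range 0 to 4, median 0). Levels were 278.7 CPM (234.9 to 328.2) in the Scgb3a1 wells, 145.4 CPM (101.3 to 202.2) in the Sftpc wells and 100.9 CPM (75.16 to 132.7) in the other wells. The Scgb3a1 wells were 2.76-fold above the other wells (1.99 to 3.88) and 1.92-fold above the Sftpc wells (1.32 to 2.86). The Sftpc and other wells differed by less than their counting error (1.44, 0.909 to 2.26). Within the first, middle and last sets the Scgb3a1 wells had 244.7, 307.4 and 311.5 CPM and the other wells 90.09, 113.5 and 94.0 CPM.

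Sox9, the SOX factor of embryonic distal tips, had nearly all its counts in a few Scgb3a1 wells. There were 27 counts in 12 of 74 Scgb3a1 wells (16.22%, 8.67 to 26.61), 1 count in the Sftpc wells and 1 in the other wells. Among the Scgb3a1 wells, 62 had 0 counts, 2 had 1, 7 had 2, 2 had 3 and 1 had 5. The variance over these wells was 2.37 times the mean. The pooled level was 52.61 CPM (34.67 to 76.55), against 4.16 CPM (0.105 to 23.15) in the Sftpc wells and 1.98 CPM (0.0501 to 11.03) in the other wells. The Scgb3a1 wells were 26.58-fold above the other wells (4.38 to 1088) and 12.66-fold above the Sftpc wells (2.09 to 518.4), each ratio against 1 count. The wells with Sox9 were spread over the table, with 6 of 38, 5 of 31 and 1 of 5 Scgb3a1 wells in the first, middle and last sets.

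**Figure D3:**
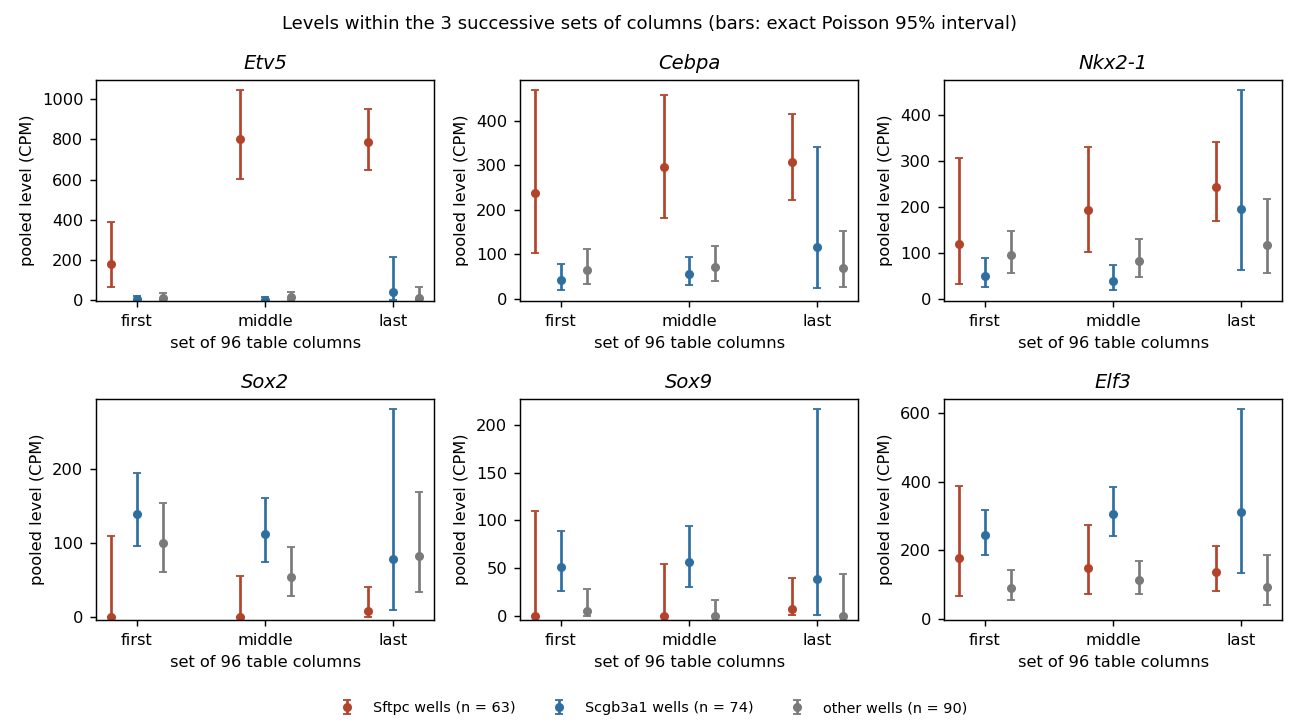
Pooled level (CPM) of 6 factors in the Sftpc, Scgb3a1 and other wells within the first, middle and last sets of 96 table columns, with exact Poisson 95% intervals. Etv5 in the Sftpc wells is at 178.8 CPM in the first set and at 787.8 CPM or more in the rest, while Cebpa stays between 238.4 and 308.0 CPM.

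The 3 pairs of groups share their groups, so their counts are given side by side and are not separate evidence. The factors and the gene lists below were chosen with earlier results of these data known. The shares of all genes beside their counts are therefore a description and not an independent comparison. A gene was counted as higher or lower when the ratio of pooled CPM was at least 2-fold, with at least 20 counts in the pair of groups together. In Sftpc against other wells, 4 of 9 measured factors were higher (Nkx2-1, Gata6, Cebpa and Etv5) and 1 lower (Sox2), beside 17.4% of 3854 measured genes higher and 9.68% lower. The median log2 ratio was 0.84 over the factors and 0.18 over all measured genes. In Scgb3a1 against other wells, 2 of 9 were higher (Sox9 and Elf3) and 1 lower (Foxa2), beside 8.13% and 9.24% of 4536 genes, with medians of 0.67 and -0.02. In Sftpc against Scgb3a1 wells, 5 of 10 were higher (Nkx2-1, Foxa2, Gata6, Cebpa and Etv5) and 2 lower (Sox2 and Sox9), beside 19.7% and 13.2% of 3834 genes, with medians of 0.89 and 0.20.

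**Figure D4:**
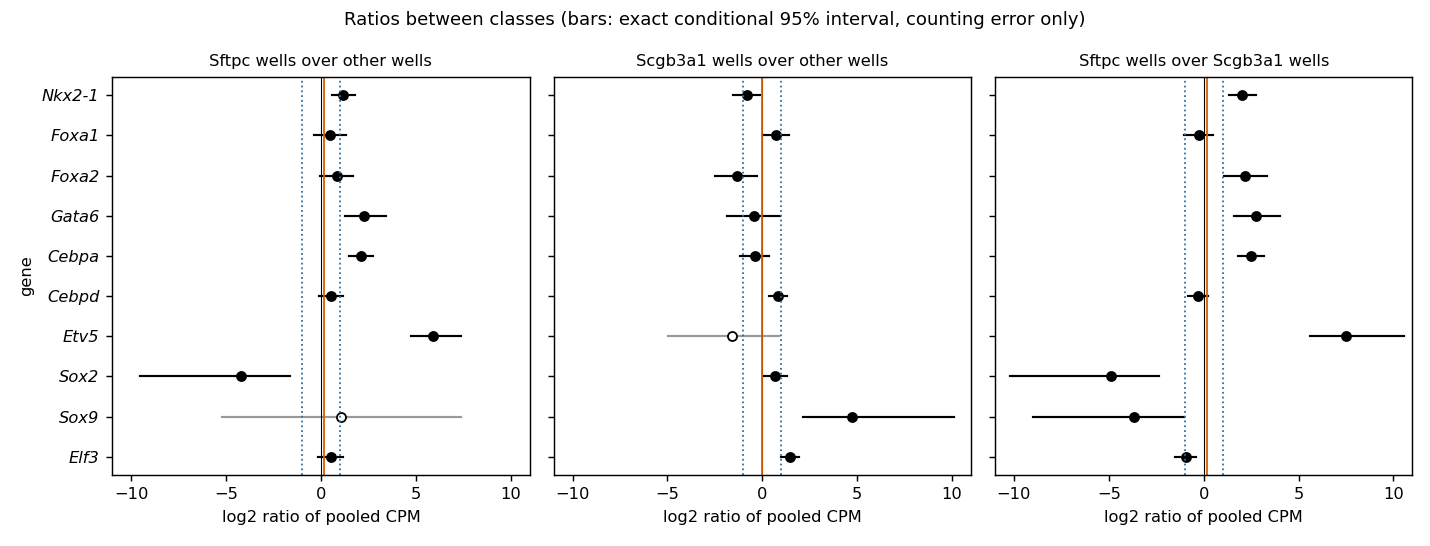
Log2 ratio of pooled CPM of each factor for the 3 pairs of groups, with exact conditional 95% intervals. Open points have under 20 counts, dotted lines mark 2-fold and the orange line is the median of all measured genes. Etv5 lies at 5.89 and 7.50 in the pairs with the Sftpc wells, and Sox9 at 4.73 in Scgb3a1 over other wells.

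Scaling moved these calls in the pairs with the Sftpc wells. Scgb1a1 alone took 4.49% of counts in the Sftpc wells, 22.78% in the Scgb3a1 wells and 30.53% in the other wells, which enters every CPM. TMM scaling divided the ratios of Sftpc to other wells by 1.25 and those of Sftpc to Scgb3a1 wells by 1.30, and put the median of all genes at -0.14 and -0.18. The share of called genes that were higher went from 64.27% to 44.23% in Sftpc against other wells, and to 49.29% both with RLE scaling and with 5 abundant genes left out of the total. In Sftpc against Scgb3a1 wells it went from 59.94% to 39.15% (TMM), 42.85% (RLE) and 47.65% (without the abundant genes). Under all 3 of these scalings Nkx2-1 was under 2-fold in Sftpc against other wells, Elf3 passed 2-fold lower in Sftpc against Scgb3a1 wells, and every other call on the 10 factors stood.

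**Figure D5:**
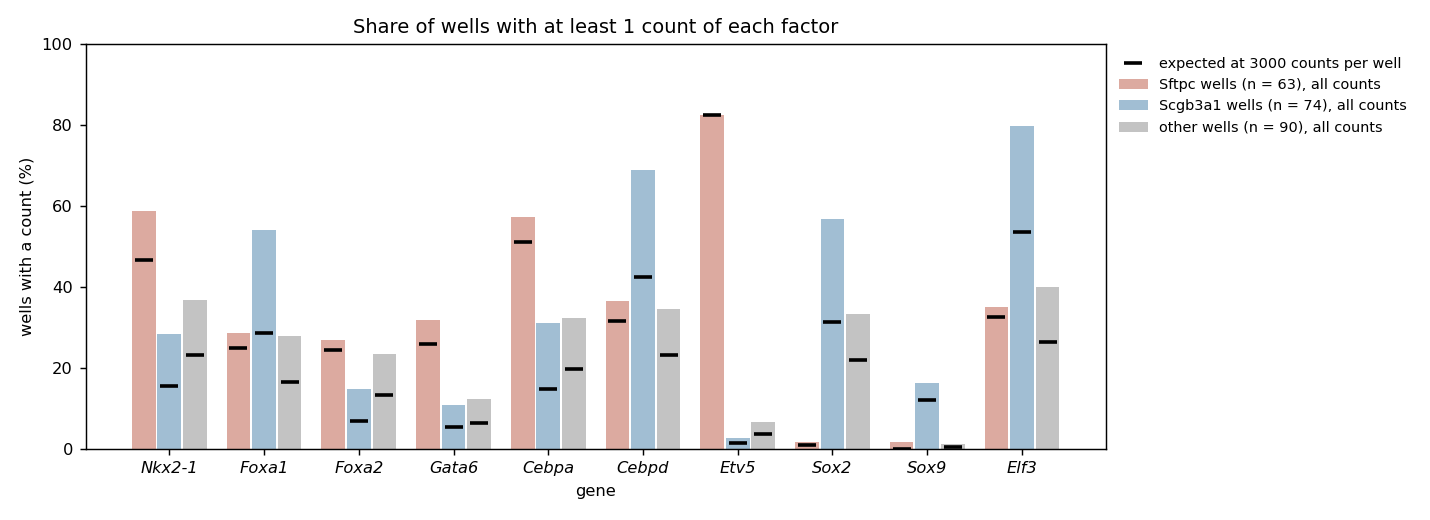
Share of wells (%) with at least 1 count of each factor in the Sftpc, Scgb3a1 and other wells (bars, all counts), and the share expected at 3000 counts per well (black marks), from the wells at least that deep. Marks lie below the bars most clearly in the deeper Scgb3a1 wells, as for Elf3 with 79.73% and 53.51%, against 34.92% and 32.53% in the Sftpc wells.

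Factors were also compared within single wells. Etv5 and Sox2 were seen together in 4 of 227 wells (1.76%, 0.482 to 4.45), where the product of their single shares over all wells is 8.5%. Both differ between the groups, which enters that product. Within the Sftpc wells, Etv5 was seen together with Cebpa in 31 wells and with Nkx2-1 in 31 wells, beside products of 29.71 and 30.54 wells. Nkx2-1 and Sox2 were seen together in 12 Scgb3a1 wells and 14 other wells, beside products of 11.92 and 11.0 wells. In the Scgb3a1 wells, Sox9 was seen with Elf3 in 11 of its 12 wells (product 9.57) and with Sox2 in 4 (product 6.81). At 1 or 2 counts per factor these numbers lie within counting error of the products for the pairs within a group.

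The genes whose counts went most closely with a factor over the 227 wells were taken among 1199 genes with at least 100 counts, by Pearson's r of log2 counts scaled to 10000 per well. The wells share chemistry and differ in depth and group, so r is a description. Etv5 went with Napsa (r = 0.81), an aspartic protease that processes surfactant proteins, Slc34a2 (0.80), the AT2 phosphate transporter, and Sftpc (0.79). Cebpa went with Cd74 (0.415), Napsa (0.41) and Lyz2 (0.403), and Nkx2-1 with Napsa (0.362), Lgi3 (0.36) and Slc34a2 (0.35). Sox2 went with the secretoglobin Scgb3a2 (0.392), Il13ra1 (0.391) and Lypd2 (0.386), and Elf3 with Bpifb1 (0.389), the mucin Muc5b (0.358) and Tff2 (0.356). Cebpd reached 0.306 with Golm1, followed by Ptp4a1 (0.278) and Adh7 (0.274). Foxa1 had no pattern, with Slc25a25 (0.259), Hdlbp (0.25) and Myl6 (0.221) as its highest. Foxa2, Gata6 and Sox9 had under 100 counts and were not included. Over the 163 wells of the first and middle sets, none of the 3 genes named for Nkx2-1 or for Foxa1 was among the 3 highest. For Nkx2-1 these were Fabp5 (0.321), H2-Aa (0.32) and Fasn (0.295). There Etv5 kept Napsa (0.825) and Slc34a2 (0.797), Cebpa kept Cd74 and Napsa, Sox2 kept Il13ra1 and Lypd2, Elf3 kept Bpifb1 and Muc5b, and Cebpd kept Golm1.

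Genes of the FGF pathway that Etv5 belongs to were described from a list of 21 receptors, adaptors and feedback inhibitors. In Sftpc against other wells 3 of 11 measured were higher and 0 lower, beside 17.4% and 9.68% of all measured genes. These were Fgfr2, the receptor of epithelial FGF signals, at 394.7 against 83.13 CPM (4.75-fold, 3.27 to 7.00), and the feedback inhibitors Spry2 (2.80-fold, 1.24 to 6.48) and Spry1 (2.29-fold, 1.40 to 3.75). Under each of the 3 other scalings 2 were higher and 1 lower. With TMM scaling Spry1 was below 2-fold and Fgfr3 was counted as lower. In Sftpc against Scgb3a1 wells 6 of 11 were higher and 0 lower, beside 19.7% and 13.2% of all genes, and 4 were higher under each of the 3 other scalings. They were led by Fgfr2 (7.50-fold), Spry2 (6.82-fold), Spry1 (6.57-fold) and Spred1 (3.73-fold). In Scgb3a1 against other wells 0 of 10 were higher and 3 lower, beside 8.13% and 9.24% of all genes, namely Fgfr3, Spry1 and Spred1.

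Genes known as targets of NKX2-1 and FOXA factors, a list of 25 without Sftpc that includes Etv5, went in both directions. In Sftpc against other wells 14 of 23 measured were higher and 5 lower, beside 17.4% and 9.68% of all genes, with a median log2 ratio of 1.51 beside 0.18 over all genes. The highest were Lamp3 (181.6-fold), Napsa (115.0-fold), Slc34a2 (76.22-fold), all of AT2 cells, and Etv5 itself, ahead of the tight junction gene Cldn18 (32.42-fold). The 5 lower were the club cell genes Scgb1a1, Scgb3a2 and Cyp2f2 with Cyp4b1 and Pon1. In Scgb3a1 against other wells 1 of 18 was higher, Scgb3a2 (2.42-fold), and 7 were lower, beside 8.13% and 9.24% of all genes. Among the lower were Ager (19.81-fold), Sfta2 (5.85-fold), Sftpb (5.79-fold) and Sfta3-ps (4.34-fold). Nkx2-1 itself was 1.77-fold lower in this pair, short of 2-fold, and Foxa2 2.49-fold lower. The part of Nkx2-1 and Foxa2 in the levels of the listed genes was not tested. Factors of other endoderm lineages, 13 genes with Hnf4a, Cdx2 and Pdx1 among them, had 0 counts in the Sftpc wells, 2 in the Scgb3a1 wells and 1 in the other wells.

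Relatives of the 10 factors were taken from lists of their families. Of 7 measured GATA, NKX and homeobox factors, 4 were higher in the Sftpc than in the other wells and 1 lower, beside 17.4% and 9.68% of all genes. The 4 were all Iroquois genes, homeobox factors of patterning, with Irx1 at 311.6 against 23.75 CPM (13.12-fold, 7.09 to 26.52), Irx5 4.99-fold, Irx2 3.8-fold and Irx3 3.00-fold, and each stayed above 2-fold under the 3 other scalings. The lower gene was Hopx. Among the forkhead factors, Foxp1 was 4.50-fold (2.63 to 7.95) and Foxo1 2.73-fold higher in the Sftpc wells, and Foxq1 4.22-fold lower. Foxq1 had 298.1 CPM in the Scgb3a1 wells, 122.7 CPM in the other wells and 29.08 CPM in the Sftpc wells. Foxj1, the master factor of motile cilia, had 0, 6 and 42 counts in the Sftpc, Scgb3a1 and other wells.

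In the SOX family, Sox21 had 30 counts in the Scgb3a1 wells and 0 in both remaining groups, which made it at least 9.85-fold higher than in the other wells, taking 3 counts over the group for 0. It was also at least 4.69-fold higher than in the Sftpc wells. Sox4 was 2.03-fold lower in the Scgb3a1 than in the other wells, and under 2-fold with TMM or RLE scaling. Among the C/EBP factors, Cebpg was 2.37-fold higher in the Sftpc than in the other wells, a call lost with TMM scaling, and Cebpb was 2.01-fold higher in the Scgb3a1 wells. Of 6 measured ETS factors, 2 were higher in the Sftpc than in the other wells and 0 lower, beside 17.4% and 9.68% of all genes. They were Ets2 (2.57-fold) and Elf2 (2.45-fold, 1.05 to 5.80), and Elf2 was under 2-fold with TMM scaling. In Scgb3a1 against other wells 1 of 6 was higher, Ets2 (2.41-fold), and 0 lower, beside 8.13% and 9.24% of all genes.

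Among 44 other regulators of airway and alveolar epithelium, 6 of 24 measured were higher and 3 lower in Sftpc against other wells, beside 17.4% and 9.68% of all genes. Id2, an inhibitor of basic helix-loop-helix factors, was 5.41-fold higher (3.13 to 9.74) and the grainyhead relative Tfcp2l1 5.67-fold higher (2.66 to 13.12). Ahr, the aryl hydrocarbon receptor, was 8.81-fold lower (2.27 to 75.47, from 2 counts in the Sftpc wells) and Bhlhe40 3.69-fold lower. With TMM scaling these counts were 5 higher and 7 lower. In Scgb3a1 against other wells Bhlhe40 (2.67-fold), Rara (2.63-fold) and Tfcp2l1 (2.46-fold) were higher. Markers of further cell types differed in the Scgb3a1 wells. Of 7 measured alveolar type 1 markers 1 was higher there than in the other wells, Pdpn, and 2 were lower, Ager (19.81-fold) and Hopx (2.34-fold). Over all genes, 8.13% were higher and 9.24% lower in that pair. Pdpn had 116 counts in the Scgb3a1 wells, 0 in the Sftpc wells and 1 in the other wells, and the basal cell genes Krt15 and Aqp3 were 13.17-fold and at least 9.19-fold above the other wells. Trp63, Krt5 and Krt14, which define basal cells, had 0 counts in the Sftpc and other wells, and Krt5 and Krt14 also in the Scgb3a1 wells. Their part in the levels of Sox9, Sox21 or Elf3 was not tested.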

How the data were processed

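Libraries were made from single cells in wells, per the labels' protocols, with cDNA primed from the poly(A) tail by a primer with a molecular barcode and amplified by PCR. The submitters' processing notes name STAR and mm10, with no version. Neither the annotation, nor the counting tool, nor a collapsing of barcodes is given in the sources used here. If copies made by PCR were counted separately, the intervals are too narrow. The authors deposited whole-number counts per gene and well, not normalized, and these were used as deposited. Every column of the table matched 1 sample (0 columns did not), and 0 pairs of wells were identical.

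The 10 factors and all gene lists were chosen with earlier results of these data known. Wells were filtered and grouped as described, and no doublet caller was run. CPM, exact Poisson, conditional binomial and Clopper-Pearson 95% intervals were computed with Python 3.11.15, numpy 2.4.6, pandas 2.3.3 and scipy 1.17.1, and figures with matplotlib 3.10.9. A group at 0 counts was taken as 3 counts for a bound. Ratios were computed for all genes, and the computation was tested on simulated data. The expected share at 3000 counts is hypergeometric. TMM and RLE factors were from edgeR 4.0.16 in R 4.3.3, on the summed counts. Named genes outside the 10 factors are up to 4 per list with the largest ratio among those past 2-fold with at least 20 counts, and 3 per factor by r. Markers at 0 counts, genes named to complete a count of 5 or fewer, Cldn18, and the stretches printed were chosen after their values were seen.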

Additional observations from a re-analysis of the deposited data

Results flagged for a closer look

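The 59 wells removed for a low total are outside every comparison above, yet they held counts of 7 of the 10 factors above the limit that a count of 0 allows. The negative controls, with 275 counts of all genes together, had 0 counts of each. Summed over the removed wells there were 30 counts of Etv5, 15 of Nkx2-1, 10 of Cebpa, 8 of Elf3, 7 of Cebpd, 5 of Foxa1 and 5 of Foxa2. All 30 Etv5 counts lay in the 27 removed wells with at least 1% Sftpc, in 12 of them, a level of 945.4 CPM (637.9 to 1350). The 29 removed wells under both limits had 0 Etv5 counts, which allows up to 121.3 CPM, and 3 Sox2 counts.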

How the results depend on the processing

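No paired analysis was possible because the wells are 1 sample and the numbers in their titles tie no well to another. Over the alternatives, 358 of the single ratios of the 10 factors stayed within their main interval, 28 moved outside it and 1 past 2-fold changed sign. That was Foxa2 in Scgb3a1 against other wells, at log2 0.49 in the first 96 columns, from 5 and 3 counts. In 6 ratios short of 2-fold the sign also changed, in 7 values. For Scgb3a1 against other wells these were Nkx2-1 and Cebpa (0.73 each) and Sox2 (-0.08) in the last columns. For Sftpc against other wells they were Cebpd (-0.12) in the middle and Foxa1 (-0.01) in the last columns, and for Sftpc against Scgb3a1 wells Cebpd in the first (0.64) and above 4000 counts (0.05). Cebpa and Etv5 in both pairs with the Sftpc wells, Foxa2 in Sftpc against Scgb3a1 wells, and Sox9 and Elf3 in Scgb3a1 against other wells stayed past 2-fold in each alternative that gave a ratio. In single sets of columns some of these ratios rest on few counts. Foxa2 had 2 and 5 counts in the Sftpc and Scgb3a1 wells of the first columns, and 5 and 5 in the middle. In the Scgb3a1 and other wells Sox9 had 12 and 1 counts in the first columns, and Elf3 8 and 8 in the last. The intervals overlapped in each of these, so the order was not resolved there. Sox9 in the middle columns had 14 and 0 counts, which gives only a bound. The counts of factors past 2-fold changed by over 1.5 times as follows, and the cause was not tested beyond fewer wells or counts. Higher in Sftpc against other wells (4), 2 in the first columns and 2 without the last 96 columns, a split added after seeing the data. Lower there (1), 0 at a minimum of 50 counts and in each set of columns alone. Higher in Scgb3a1 against other wells (2), 1 at 50 counts and 0 in the last columns. Lower there (1), 0 at a 2% limit, at 50 counts and in the first and last columns, and 2 with no minimum and in the middle columns. Higher in Sftpc against Scgb3a1 wells (5), 3 at 50 counts, in the middle and in the last columns and without the last, and 0 in the first. Lower there (2), 1 above 4000 counts, at 50 counts, in the last columns and without them, and 0 in the first. The factors counted were not always the same. In Sftpc against Scgb3a1 wells the lower factors were Elf3 in the last columns, and Sox2 and Elf3 in the middle columns. In Scgb3a1 against other wells Sox2 and Elf3 were higher in the middle columns. Fewer factors were measured in single sets, with 4 in the first columns of Sftpc against Scgb3a1 wells and 0 in the last columns of Scgb3a1 against other wells. Smaller changes were also seen. Sftpc against other wells had 5 higher at a 2% limit, with no minimum and without each factor's well of most counts, and 3 above 4000 counts, at 50 counts, in the middle columns and with each of the 3 other scalings. Scgb3a1 against other wells had 3 higher by the mean of well CPM. Sftpc against Scgb3a1 wells had 4 higher above 4000 counts, and 3 lower at a 2% limit, with the 3 scalings and by the mean of well CPM. Over all genes, Sftpc against other wells had 671 higher and 373 lower, and 445 and 561 with TMM, 2764 and 1024 with no minimum, 216 and 141 at 50 counts, 380 higher above 4000 counts and 427 higher without the last columns. Sftpc against Scgb3a1 wells had 757 and 506, and 491 and 763 with TMM, 3061 and 1103, 256 and 223, 473 and 493 in the same order. Scgb3a1 against other wells had 369 and 419, and 1111 and 1819 with no minimum and 139 and 116 at 50 counts. Single sets of columns had between 33 and 327 in each direction over the pairs. Depth limits all single-well values, since most were 0 to 2 counts.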
